A study of Mus musculus with 27 samples.

Results

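Retinas of mice at postnatal day 15 (P15) were compared with retinas at P28, to ask which genes still change once the eyes are open. The comparison used all 4 P15 and all 4 P28 libraries, 8 of the 27 libraries of a series that sampled 7 ages from the embryo (E14) to the adult (P60). All were whole retinas of wild-type C57BL/6J mice, an inbred laboratory strain, with no treatment, transgene or mutation in either group, so that age was the difference under study. By the paper's Methods the postnatal libraries used here came from males and each was a pool of at least 6 retinas, and the labels state 3 mice for a library. The mice lived under a light and dark cycle and tissue was taken in the afternoon. RNA was total RNA, sequenced as single-end reads, and values are in CPM, the reads of a gene scaled to a library total that is the same for all libraries. Nothing in the labels ties a P15 library to a P28 library, and different animals were used at each age.

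The mouse retina has made all of its neurons by the end of the first postnatal weeks, and the eyelids open shortly before P15. Rods and cones then go on building their outer segments, the stacked membranes that hold the visual pigments, and bipolar cells complete their contacts with them. Blood vessels that grew over and into the retina after birth are pruned and stabilised over the same weeks, with endothelial cells sealed by tight junctions, wrapped by pericytes and set in a basement membrane of laminins, nidogens and type IV collagen.

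The totals to which CPM was scaled were 7275289 to 8217567 reads at P15 and 7121606 to 7955249 reads at P28, recovered from the CPM values. A single read was thus worth about the same in each library. The paper states a larger number of reads collected for each library. At this depth a value under 1 CPM rests on fewer than 9 reads. All 19 markers of retina had at least 1 CPM in at least 3 of the 27 libraries. They had a summed level of 17002 to 18086 CPM at P15 and 23554 to 24641 CPM at P28. Their median log2 fold change from P15 to P28 was -0.05, with 10 of 19 below 0, so the higher sum was not a rise of most markers. Xist, the transcript that silences an X chromosome in females, lay between 0 and 0.669 CPM. Of the 45 tissue and pathway lists used below, those for blood and lens had no member past an adjusted p of 0.05, with sums of 27.9 to 34.4 CPM at P15 and 24.5 to 32.2 CPM at P28 for blood and 11.9 to 13.5 CPM at P15 and 10.3 to 12.7 CPM at P28 for lens, where Cryaa and Crybb2 were at 0 throughout. The 8 genes of keratinised surface epithelium found, of which 4 were tested, summed to 4.95 to 7.64 CPM at P15 and 5.28 to 46.6 CPM at P28. The highest sum was that of P28 replicate 1, the library in which the corneal keratin gene Krt12 measured 23.4 CPM.

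One library stood apart. P15 replicate 4 had a mean Pearson r of 0.979 with the other P15 libraries across the features tested, while the other 3 had 0.984 to 0.985 and the P28 libraries 0.985 to 0.986, values that describe the libraries and not independent replicates. Among 17737 features averaging at least 5 CPM, 103 (0.581%) lay more than 1 log2 unit from the mean of the other 3 libraries of that age in P15 replicate 4, against 1 to 10 in the other P15 libraries and 8 to 21 in the P28 libraries. Of the 103, 64 were low and 39 high in that library, and 45 of the low ones and 16 of the high ones had no Gene ID, as did 26.3% of the 17737.

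Of 38168 features in the table, 31760 had at least 1 CPM in at least 3 libraries and were tested, and 6408 were not. Between P15 and P28, 122 of the 31760 changed at a limma adjusted p under 0.05 and at least 1 log2 unit (0.384%), 52 higher (0.164%) and 70 lower (0.22%) at P28. The median log2 fold change over all features was -0.02. Without the minimum size of change 864 passed (2.72%), 361 higher (1.14%) and 503 lower (1.58%). Of the 122 features, 120 had no P15 library within the range of the P28 libraries, which held for 11.5% of all features tested. Passing the test favours such a separation, so it is not separate support. Without P15 replicate 4 the numbers were 123 features, 54 higher and 69 lower, and 112 of the 122 were among them. A Gene ID was given for 104 of the 122. In the lists below a fall or rise means an adjusted p under 0.05, whatever its size. Each list count stands against 1.58% of all features that fell and 1.14% that rose. A bare value for a gene is its log2 fold change (P28 minus P15, on log2(CPM + 1)). The largest falls were Cd93, Adgrl4, Nid1, Duxbl1 and Cldn5, and the largest rises with a Gene ID were Ndufaf2, Sgk1, Gm11754, Gm10097 and Kif4.

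**Figure D1:**
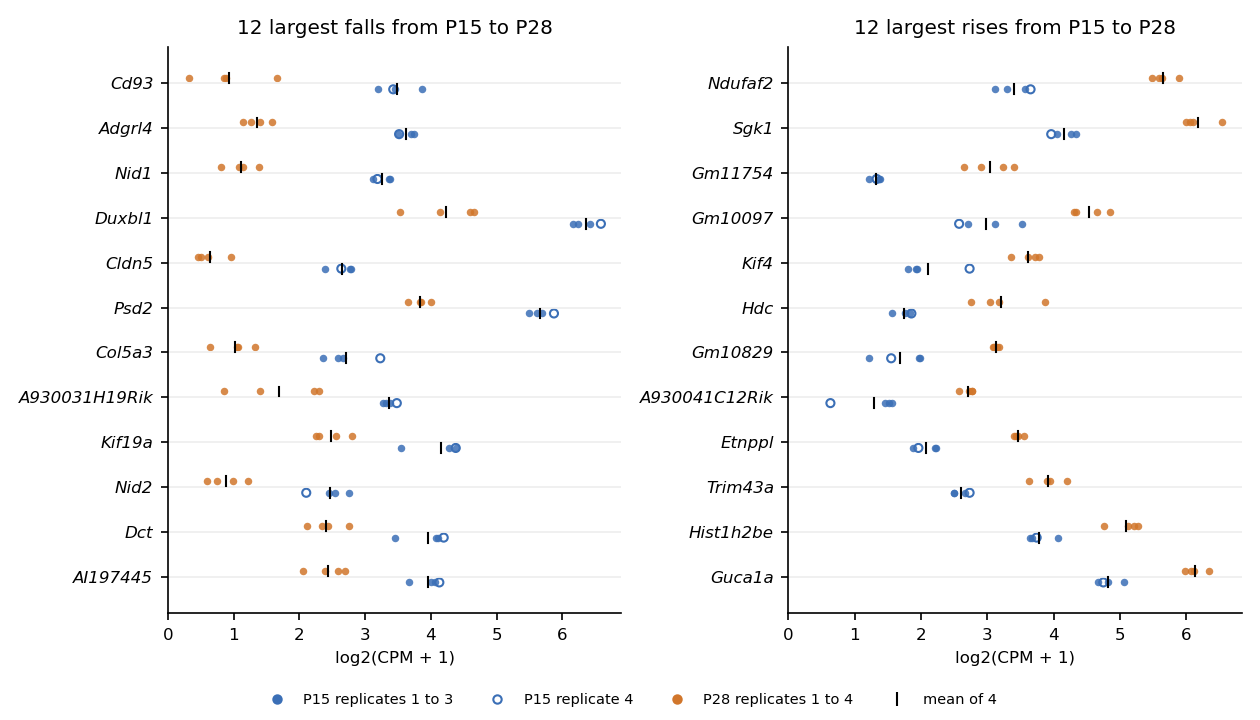
Level of the 12 genes with the largest fall (left) and the 12 with the largest rise (right) in each library, as log2(CPM + 1), with P15 in blue (replicate 4 open), P28 in orange and a bar at the mean of the 4 libraries. No P15 library overlaps a P28 library in any of the 24 genes, as the rule for choosing them required, and replicate 4 lies highest of the P15 libraries in Kif4 and lowest in A930041C12Rik.

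**Figure D2:**
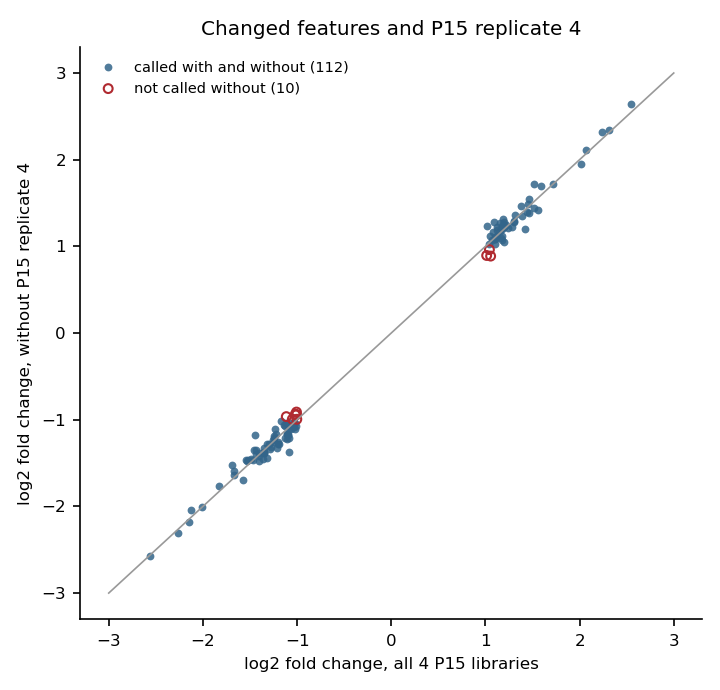
Log2 fold change (P28 minus P15) of the 122 changed features, with all 4 P15 libraries on the x axis and without P15 replicate 4 on the y axis. Points follow the line of equality, and the 10 features no longer called (open red) lie at the edge of 1 log2 unit.

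Some genes of blood vessels fell between the 2 ages. Of 21 tested genes of mature vessels and the blood-retina barrier, 8 fell and 0 rose (limma adjusted p under 0.05, against 1.58% and 1.14% of all features), with a median log2 fold change of -0.47 and 20 of 21 below 0. Of 17 tested genes of angiogenic and tip endothelium 7 fell and 0 rose, with a median of -0.44. In whole-retina RNA a smaller number of vessel cells and less RNA per vessel cell cannot be told apart. Without P15 replicate 4 the falls numbered 7 and 5.

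Cd93, a lectin-like glycoprotein of the endothelial surface, measured 8.16, 13.6, 9.98 and 9.76 CPM at P15 and 0.799, 0.843, 2.16 and 0.251 CPM at P28. All P28 libraries lay far below all P15 libraries, P28 replicate 3 being the highest of them, and the change was a log2 fold change of -2.56 (SE 0.28, limma adjusted p = 5.6e-07), with means 10.2-fold higher at P15. Adgrl4, an adhesion receptor of endothelium, was at 12.4, 12.0, 10.3 and 10.4 CPM at P15 and 1.999, 1.404, 1.22 and 1.63 CPM at P28. The 2 ages were far apart and tight within themselves, at a log2 fold change of -2.27 (SE 0.24, limma adjusted p = 3.1e-07). Cldn5, the main claudin of the tight junctions between brain and retinal endothelial cells, stood at 5.89, 5.79, 4.26 and 5.22 CPM at P15 and 0.533, 0.421, 0.947 and 0.377 CPM at P28. All P28 libraries were under 1 CPM, and Cldn5 changed by -2.01 (limma adjusted p = 1.5e-05) with means 9.29-fold higher at P15.

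Transcripts of 2 genes of apelin signalling, which guides sprouting vessels, were low at both ages and lower at P28. Aplnr, the apelin receptor of endothelium, was at 1.20, 2.37, 1.83 and 2.20 CPM at P15 and 0, 0, 0 and 0 CPM at P28. With no read at all at P28, its mean was at least 4.74-fold lower there (against a floor of 3 reads per library), and the fitted change had a limma adjusted p of 2.2e-07. Apln, the ligand made by tip cells, was at 2.28, 4.61, 3.65 and 8.25 CPM at P15 and 1.999, 0.562, 1.22 and 0.377 CPM at P28 (log2 fold change -1.45, limma adjusted p = 0.0015). P15 replicate 4 was the highest of its group. Tie1 and Tek, of the angiopoietin receptor family, fell as well, Tek with little margin. Tie1 ranged from 1.61 to 2.34 CPM at P15 and 0.133 to 0.629 CPM at P28 (log2 fold change -1.25, limma adjusted p = 7.7e-06). Tek ranged from 5.96 to 7.90 CPM at P15 and 3.09 to 4.33 CPM at P28 (log2 fold change -0.74, limma adjusted p = 0.035). The adjusted p of Tek was 0.038 to 0.13 with 1 library left out at a time and 0.085 with edgeR, and it passed in 3 of 14 other settings. Robo4, a guidance receptor of endothelium, was near the limit of detection, at 1.05 to 2.14 CPM at P15 and 0.266 to 0.629 CPM at P28 (log2 fold change -0.74, limma adjusted p = 0.033, 0.03 to 0.13 with 1 library left out at a time).

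Vegfa, the growth factor that drives vessel growth and is made largely by glia and neurons, measured 186, 224, 259.6 and 449 CPM at P15 and 158, 166, 169 and 149 CPM at P28. P15 replicate 4 was far above the other 3, although all 4 P15 libraries were above all 4 P28 libraries. The log2 fold change was -0.71 (limma adjusted p = 0.017) with all libraries, -0.46 (adjusted p = 0.095) without P15 replicate 4 and past the threshold in 13 of 15 other settings, with an adjusted p of 0.0027 to 0.095. Leaving out P28 replicate 4 gave 0.064. Vegfa was 267 ± 59.4 CPM (SD, n = 6) at P60.

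Some genes of pericytes, the contractile cells that wrap capillaries, fell. Rgs5, a regulator of G-protein signalling and a standard pericyte marker, was at 81.5, 83.8, 89.8 and 94.4 CPM at P15 and 34.9, 32.7, 33.0 and 26.3 CPM at P28. The level fell 2.75-fold between the means, with a log2 fold change of -1.44 (SE 0.16, limma adjusted p = 8.1e-07). Abcc9, the sulfonylurea receptor of the pericyte potassium channel, was at 12.2, 17.1, 14.7 and 15.3 CPM at P15 and 5.06, 7.16, 4.87 and 3.27 CPM at P28 (log2 fold change -1.41, limma adjusted p = 0.00057). Kcnj8, the pore of the same channel, fell by 0.99 on the log2 scale and Cspg4, the NG2 proteoglycan of pericytes, changed by -1.24 (limma adjusted p = 0.0013). Pdgfrb, the receptor that recruits pericytes, was at -0.52 and did not pass the test, nor did the smooth muscle genes Acta2 (-0.20), Tagln (0.19) and Myh11 (-0.51).

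Junction and barrier genes did not all move alike. Cdh5, the cadherin of endothelial junctions, ranged from 3.21 to 5.66 CPM at P15 and 1.12 to 1.47 CPM at P28 (log2 fold change -1.20, limma adjusted p = 0.0025), and Itm2a, a membrane protein enriched in endothelium of the brain, from 4.50 to 8.16 CPM at P15 and 1.51 to 2.53 CPM at P28 (log2 fold change -1.19, limma adjusted p = 5.6e-05). Pecam1, an adhesion molecule of endothelium, was at 12.3, 14.1, 14.2 and 17.3 CPM at P15 and 8.66, 6.74, 8.66 and 8.67 CPM at P28. Its change of -0.75 (limma adjusted p = 0.028) had an adjusted p of 0.032 to 0.1 with 1 library left out at a time. The transporters of the barrier did not pass the test, with Slc2a1 (glucose) at -0.32, Mfsd2a (lipid) at -0.41, Abcb1a (drug efflux) at -0.47 and Slc16a1 (lactate) at -0.10. Kdr at 0.12 and Flt1 at 0.06, the VEGF receptors, were above 0 and did not pass. Plvap, a gene of fenestrated vessels, was at 0.46 and did not pass.

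Further endothelial genes outside the lists were among the 122, chosen here after their values were seen. Ptprb, the phosphatase that opposes the angiopoietin receptor, was at 29.98, 36.2, 40.4 and 35.6 CPM at P15 and 15.3, 11.8, 11.1 and 10.9 CPM at P28 (log2 fold change -1.46, limma adjusted p = 8.9e-06). Adgrf5, an adhesion receptor of endothelium, was at 14.2 to 19.9 CPM at P15 and 4.49 to 6.93 CPM at P28 (log2 fold change -1.44, limma adjusted p = 0.00013). Ets1, a transcription factor expressed in endothelium, was at 5.62 to 6.19 CPM at P15 and 1.07 to 1.83 CPM at P28 (log2 fold change -1.41, limma adjusted p = 6.1e-05). Vwf, the clotting factor stored in endothelium, was at 3.29 to 6.46 CPM at P15 and 1.22 to 1.76 CPM at P28 (log2 fold change -1.11, limma adjusted p = 0.0017). Vwf passed an adjusted p of 0.05 with each library left out in turn (0.0017 to 0.013), with a log2 fold change of -0.96 without P15 replicate 4. In each of these 4 genes all P15 libraries were above all P28 libraries, and 120 of the 122 changed features had ages that did not overlap.

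Of 28 tested genes of basement membrane and collagen 13 fell and 0 rose, with a median log2 fold change of -0.46, and without P15 replicate 4, 13 fell and 1 rose. Nid1, which links the laminin and collagen networks, was at 9.23, 9.35, 7.67 and 8.11 CPM at P15 and 1.60, 1.12, 1.22 and 0.754 CPM at P28. The means differed 7.32-fold, with a log2 fold change of -2.15 (SE 0.20, limma adjusted p = 2.5e-08). Nid2, the second nidogen, was at 4.82, 4.48, 5.72 and 3.30 CPM at P15 and 1.33, 0.983, 0.677 and 0.503 CPM at P28 (log2 fold change -1.58, limma adjusted p = 1.2e-05). For both nidogens the lowest P15 library was above the highest P28 library, as the rule for naming them required. Lama4, the laminin chain of endothelial basement membrane, ranged from 4.68 to 10.01 CPM at P15 and 1.69 to 3.25 CPM at P28 (log2 fold change -1.25, limma adjusted p = 0.001), and Hspg2, the heparan sulfate proteoglycan perlecan, from 8.03 to 10.3 CPM at P15 and 2.11 to 5.06 CPM at P28 (log2 fold change -1.22, limma adjusted p = 9.4e-05). Col5a3, a fibrillar collagen chain that is not in the list, ranged from 4.15 to 8.38 CPM at P15 and 0.562 to 1.51 CPM at P28 (log2 fold change -1.69, limma adjusted p = 1.5e-05). Col4a1, the main network collagen, was at 28.1, 26.9, 27.1 and 26.9 CPM at P15 and 12.5, 14.0, 15.4 and 17.7 CPM at P28 (log2 fold change -0.84, limma adjusted p = 0.0011). Its annotated exons overlap Col4a2 on the opposite strand, and Col4a2 changed by -1.01 (limma adjusted p = 0.00011) with all libraries and -0.94 without P15 replicate 4, so the 2 genes may share reads. Sparc, a collagen-binding matrix protein and the most abundant member to fall, was at 126, 136, 131 and 148 CPM at P15 and 79.9, 83.7, 68.7 and 64.5 CPM at P28 (log2 fold change -0.86, limma adjusted p = 0.00019). Members of the list that are not vascular also fell, with Col9a1 at -0.96 and Fbn2 at -1.28, and members that did not pass included Lamb2 at -0.02, Lama2 at 0.04, Fbn1 at -0.04, Col18a1 at -0.26 and Col1a1 at -0.23. Col5a1 was the member furthest above 0, at 0.69, and did not pass with all libraries.

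A pair of pigment cell genes fell. Of 17 tested markers of the retinal pigment epithelium (RPE), the layer behind the retina, Dct and Pmel fell and 0 rose, with a median of -0.34. The list summed to 498 to 552 CPM at P15 and 457 to 544 CPM at P28, ranges that overlap, and no member was at 0 in all libraries. Dct, an enzyme of melanin synthesis, was at 9.90, 16.2, 15.9 and 17.3 CPM at P15 and 3.33, 5.76, 4.06 and 4.40 CPM at P28 (log2 fold change -1.55, limma adjusted p = 0.0012), and Pmel, the melanosome matrix protein, at 2.24 to 2.94 CPM at P15 and 0.266 to 1.12 CPM at P28 (log2 fold change -1.09, limma adjusted p = 0.017, 0.02 to 0.083 with 1 library left out at a time). The part of pigment cells in the fall of vessel genes was not tested.

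Promoter sequences are shown for 3 of the fallen vessel genes, as a view of what lies just before genes that moved together. They are RefSeq windows of 250 bases that end at an annotated start (GRCm38.p6), read in the direction of the gene, at chr16:18776597-18776846, plus strand for Cldn5, chr13:13437352-13437601, plus strand for Nid1 and chr4:118489850-118490099, minus strand for Tie1. Capitals mark AGGAAG on either strand, letters that hold the core bound by ETS-family factors. Such a match occurred in 3 of 6 vessel genes searched (Adgrl4, Nid1 and Tie1, but not Cldn5, Rgs5 or Abcc9) and in 29.5% of 32851 promoter windows of the same length. It does not show that a factor binds there.
Cldn5: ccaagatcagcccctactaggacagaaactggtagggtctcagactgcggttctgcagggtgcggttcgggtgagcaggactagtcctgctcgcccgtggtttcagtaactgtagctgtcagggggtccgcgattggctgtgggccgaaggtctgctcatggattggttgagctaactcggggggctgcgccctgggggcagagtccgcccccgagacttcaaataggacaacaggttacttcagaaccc
Nid1: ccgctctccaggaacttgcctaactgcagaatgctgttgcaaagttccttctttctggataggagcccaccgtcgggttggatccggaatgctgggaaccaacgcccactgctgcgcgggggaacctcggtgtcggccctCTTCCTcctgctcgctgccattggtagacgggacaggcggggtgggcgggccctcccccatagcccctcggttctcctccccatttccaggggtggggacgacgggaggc
Tie1: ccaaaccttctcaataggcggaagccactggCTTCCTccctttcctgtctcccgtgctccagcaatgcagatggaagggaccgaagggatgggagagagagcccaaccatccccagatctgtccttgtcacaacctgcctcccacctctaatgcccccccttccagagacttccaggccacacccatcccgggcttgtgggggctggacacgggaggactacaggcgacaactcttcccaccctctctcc

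At neighbouring ages the vessel genes did not follow one course. From P6 to P15 Rgs5 changed by 0.53 (limma adjusted p = 0.018), Abcc9 by 1.03 (0.0026) and Ptprb by 0.82 (0.0018), while Nid1 changed by -0.73 (0.0091) and Cldn5 by -0.10 (0.83). From P28 to P60 Ptprb changed by 0.59 (0.024), Adgrf5 by 0.98 (0.0054), Hspg2 by 0.68 (0.013) and Col4a2 by 0.66 (0.0064), and Rgs5 by -0.25 (0.26) and Cldn5 by 0.41 (0.27). These steps share the P15 or the P28 libraries with the comparison above and are given for their values only. The level of Ptprb was 35.5 ± 4.28 CPM at P15 (SD, n = 4), 12.3 ± 2.06 at P28 (n = 4) and 19.4 ± 4.67 at P60 (n = 6).

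**Figure D3:**
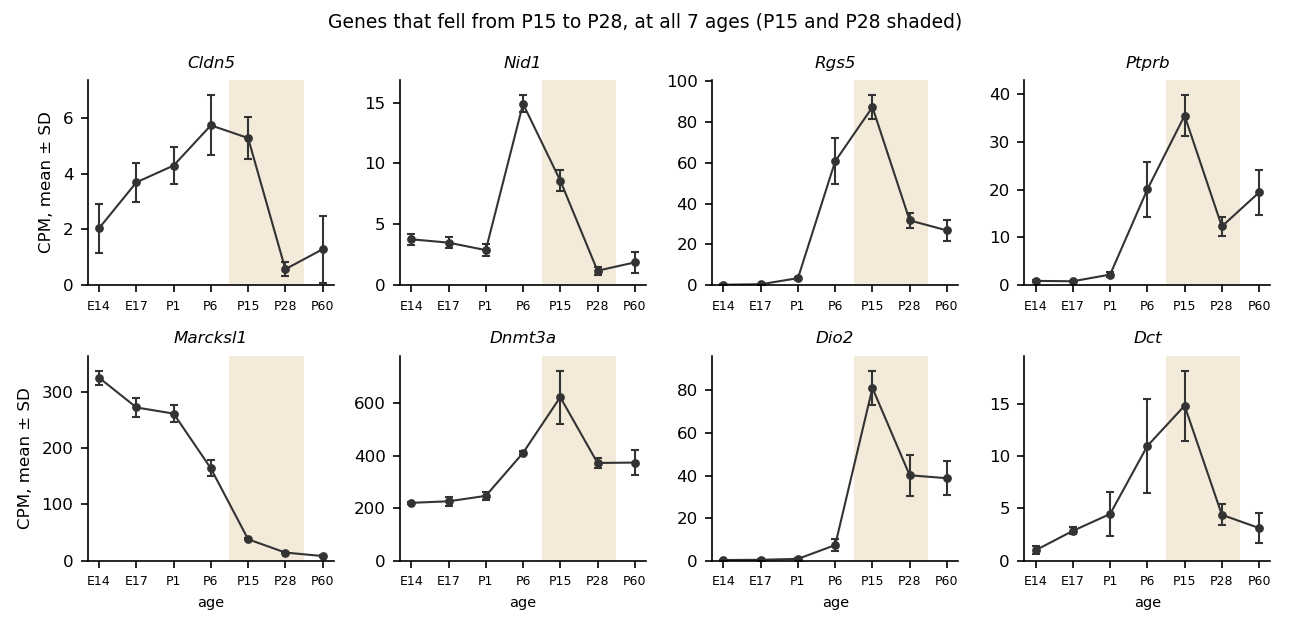
Mean CPM with SD at each of the 7 ages (3 libraries at E14, E17 and P6, 4 at P1, P15 and P28, 6 at P60) for 8 genes that fell from P15 to P28 (shaded). Rgs5, Ptprb, Dnmt3a, Dio2 and Dct have their highest mean at P15, Cldn5 and Nid1 have theirs at P6, and Marcksl1 has its highest at E14.

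Of 19 tested genes of immature neurons 9 fell and 0 rose, all 19 log2 fold changes were below 0 and the median was -0.38. Without P15 replicate 4 the falls numbered 6. Marcksl1, an actin-binding protein of growing processes, was at 37.7, 36.9, 40.2 and 36.8 CPM at P15 and 15.7, 14.6, 12.6 and 14.1 CPM at P28. The libraries of each age lay within a few CPM of each other, and Marcksl1 changed by -1.35 (limma adjusted p = 7.9e-10). It had been 325 ± 12.5 CPM at E14 (SD, n = 3) and was 8.04 ± 1.72 CPM at P60 (n = 6). Sox4, a transcription factor of newborn neurons, was at 47.6, 53.2, 61.7 and 65.8 CPM at P15 and 36.2, 29.5, 27.3 and 23.9 CPM at P28 (log2 fold change -0.95, limma adjusted p = 3.5e-05). Dcx, the doublecortin that binds microtubules in migrating neurons, was at 25.3, 24.4, 26.8 and 15.3 CPM at P15 and 14.8, 14.5, 12.2 and 11.9 CPM at P28 (log2 fold change -0.71, limma adjusted p = 0.00061), with P15 replicate 4 the lowest of its group and next to the P28 values. Stmn2, a regulator of microtubules in growing axons, changed by -0.68 (limma adjusted p = 6.2e-05) and Sox11, a factor related to Sox4, by -0.64 (limma adjusted p = 0.00096). Tubb2b, a tubulin of young neurons, was at 5.89, 6.19, 9.25 and 12.4 CPM at P15 and 5.46, 5.34, 2.84 and 4.65 CPM at P28 (log2 fold change -0.73, limma adjusted p = 0.0089), and its adjusted p was 0.06 without P15 replicate 4 and 0.064 without P28 replicate 3. Gap43 at -0.42, Stmn1 at -0.27 and Tubb3 at -0.35 did not pass.

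Few cell division genes changed. Of 23 tested cell division genes 0 fell and 1 rose, Bub1b, a checkpoint kinase gene, at 7.18 to 13.4 CPM at P15 and 13.5 to 17.5 CPM at P28 (log2 fold change 0.72, limma adjusted p = 0.044, 0.011 to 0.16 with 1 library left out at a time), and the median was 0.05. Mki67, the standard proliferation antigen, was at -0.60 and Top2a, a topoisomerase of dividing cells, at -0.26, and neither passed. Kif19a, a kinesin that sets the length of motile cilia, was at 10.7, 18.4, 19.8 and 19.8 CPM at P15 and 6.00, 3.93, 4.87 and 3.77 CPM at P28. P15 replicate 1 was the lowest P15 library and still above every P28 library, with a change of -1.67 (limma adjusted p = 8.1e-05). Btbd17 changed by -1.23 (limma adjusted p = 0.00038) and Fabp7, a fatty acid binding protein of radial glia, by -1.10 (limma adjusted p = 0.00079). Both were chosen after their values were seen. All 3 had fallen before, with changes of -3.25, -3.12 and -4.33 for Kif19a, Btbd17 and Fabp7 from P6 to P15 (limma adjusted p = 4e-11, 1.2e-12 and 1.3e-16).

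A set of 4 genes tied to thyroid hormone fell among 20 tested, and 0 rose, with a median of -0.12. Dio2, the deiodinase that makes the active hormone, was at 75.1, 92.8, 76.3 and 80.3 CPM at P15 and 48.1, 46.3, 39.2 and 26.8 CPM at P28. The level dropped 2.02-fold between the means, with a log2 fold change of -1.03 (SE 0.22, limma adjusted p = 0.0057), and the adjusted p was 0.051 without P28 replicate 4, the lowest library, and 0.39 with a pseudocount of 0.1. It had risen by 3.35 from P6 to P15 and was 38.7 ± 7.87 CPM at P60 (SD, n = 6). Hr, a corepressor induced by thyroid hormone, was at 121, 126, 111 and 160.0 CPM at P15 and 72.2, 81.7, 77.7 and 61.5 CPM at P28 (log2 fold change -0.81, limma adjusted p = 0.0041). Crym, a protein that binds thyroid hormone in the cytosol, ranged from 19.7 to 25.4 CPM at P15 and 10.2 to 15.9 CPM at P28 (log2 fold change -0.69, limma adjusted p = 0.0068, 0.055 without P28 replicate 4), and Ncoa2, a receptor coactivator, from 266 to 294 CPM at P15 and 211 to 224 CPM at P28 (log2 fold change -0.36, limma adjusted p = 0.00052). In all 4 genes the ages did not overlap, which held for 11.5% of all features tested. These genes were named for passing the test, which favours such a separation, so it is not separate support. The receptor genes Thra and Thrb were at 0.06 and -0.01 and Klf9, a target of the receptors, at -0.35, and none of the 3 passed. The Thrb value is for the whole gene, and its receptor forms TRβ1 and TRβ2 were not separated here. The paper reports that total Thrb reads could not show the developmental shift from TRβ2 to TRβ1.

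Among DNA methylation genes past the threshold falls outnumbered rises, but most members of the list were above 0. Of 15 tested, 4 fell and 1 rose, with a median of 0.04, 9 above 0 and 6 below. Without P15 replicate 4, 4 fell and 0 rose. Dnmt3a, the enzyme that sets methylation in mature neurons, was at 529, 597, 605 and 767 CPM at P15 and 377, 387, 380.1 and 347 CPM at P28. P15 replicate 4 was the highest, and the change was -0.73 (limma adjusted p = 5.3e-06) with it and -0.63 (adjusted p = 3.4e-05, in a range of 2.5e-06 to 0.00031 over 15 other settings) without it. Tet1, which oxidises methylated cytosine, was at 124, 122, 128 and 112 CPM at P15 and 67.8, 70.5, 72.0 and 64.4 CPM at P28 (log2 fold change -0.81, limma adjusted p = 4.3e-09), and Tet3, a related enzyme, at 354, 363, 360.3 and 362 CPM at P15 and 304, 295, 295 and 275 CPM at P28 (log2 fold change -0.30, limma adjusted p = 0.0045). Both were close within an age and apart between ages. Gadd45a, linked to demethylation, changed by -0.57 (limma adjusted p = 0.011, but 0.052 without P15 replicate 3 and 0.053 without P28 replicate 3). Dnmt1, the maintenance enzyme, was at 0.15 and Tet2 at -0.17, and neither passed.

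Several of the largest falls belonged to none of these lists. Psd2, an exchange factor for the small GTPase ARF6, was at 44.0, 50.4, 48.2 and 57.6 CPM at P15 and 11.6, 13.3, 15.02 and 13.5 CPM at P28. The 3.75-fold difference of means came with a log2 fold change of -1.83 (SE 0.13, limma adjusted p = 6.2e-11), and Psd2 was 15.03 ± 2.37 CPM at P60 (SD, n = 6). Duxbl1, a double homeobox gene, was at 70.8, 74.7, 85.1 and 95.1 CPM at P15 and 16.7, 24.2, 23.3 and 10.6 CPM at P28 (log2 fold change -2.12, limma adjusted p = 1.1e-05), but a near-identical copy, Duxbl2, changed by -1.35 (limma adjusted p = 0.0006) and reads of the pair may be split between them. The noncoding A930031H19Rik ranged from 8.70 to 10.2 CPM at P15 and 0.799 to 3.92 CPM at P28 (log2 fold change -1.67, limma adjusted p = 2.3e-05), after a rise of 3.09 from P6 to P15, and AI197445 from 11.6 to 16.5 CPM at P15 and 3.14 to 5.48 CPM at P28 (log2 fold change -1.53, limma adjusted p = 2.5e-06). Of the imprinted genes 3 of 17 fell and 0 rose. Among them Meg3, a maternally expressed noncoding RNA, was at 2793, 2970.2, 3098 and 4502 CPM at P15 and 2052, 2344, 2530.3 and 2271 CPM at P28 (log2 fold change -0.52, limma adjusted p = 0.011, 0.072 without P15 replicate 4, its highest library, and 0.057 without P28 replicate 1). Rian, from the same cluster, was at 231, 232, 231 and 212 CPM at P15 and 149, 162, 177 and 133 CPM at P28 (log2 fold change -0.55, limma adjusted p = 4.3e-05). Without P15 replicate 4, 1 of the 17 fell. Nefm, a neurofilament of ganglion cells, was at 307, 319.7, 317 and 483 CPM at P15 and 238, 236, 238 and 248 CPM at P28 (log2 fold change -0.55, limma adjusted p = 0.0051) and was the 1 of 16 ganglion cell genes past the threshold. P15 replicate 4 was far above the others in Nefm, where the change without it was -0.39 (adjusted p = 0.035, in a range of 0.0041 to 0.035).

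Some photoreceptor genes were still rising. Of 20 tested rod phototransduction genes 2 rose and 0 fell, with a median of 0.24 and 17 of 20 above 0. Rgs9bp, which anchors the complex that ends the light response, was at 1049, 1036, 1044 and 1170.3 CPM at P15 and 1447, 1474, 1490.0 and 1524 CPM at P28 (log2 fold change 0.47, limma adjusted p = 0.025, 0.029 to 0.078 with 1 library left out at a time). The settings that kept every P15 and P28 library, edgeR among them, gave Rgs9bp an adjusted p of 0.00026 to 0.059. Gnat1, the rod transducin, was at 4088, 3914, 3877 and 4085 CPM at P15 and 6143, 5514, 5424 and 6566 CPM at P28, a change of 0.56 (limma adjusted p = 0.11) that did not pass although the ages did not overlap. Prph2, a protein of the disc rim shared by rods and cones, was at 1405, 1379.9, 1382 and 1477 CPM at P15 and 1870.5, 1855, 1901 and 1873 CPM at P28 (log2 fold change 0.41, limma adjusted p = 0.0051). It was the 1 of 11 outer segment genes past the threshold, where the median was -0.01. Sag, the rod arrestin, was at -0.26 and Rcvrn, a calcium sensor, at -0.28, and neither passed.

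Some cone genes rose too. Of 14 tested 4 rose and 0 fell, with a median of 0.14 and 13 of 14 above 0, and without P15 replicate 4, 3 rose. Guca1a, the calcium-sensing activator of guanylate cyclase in photoreceptors, was at 32.4, 27.3, 24.3 and 25.8 CPM at P15 and 66.1, 68.5, 61.8 and 80.3 CPM at P28. The means differed 2.52-fold, with a log2 fold change of 1.30 (SE 0.17, limma adjusted p = 1e-05) and an adjusted p of 0.062 with a pseudocount of 0.1. Arr3, the cone arrestin, was at 84.2, 78.1, 79.7 and 92.8 CPM at P15 and 149, 169, 173 and 155 CPM at P28 (log2 fold change 0.94, limma adjusted p = 1.8e-05), and at P60 it was 217 ± 26.97 CPM (SD, n = 6). Gnat2, the cone transducin, was at 31.3, 29.1, 26.4 and 28.04 CPM at P15 and 38.6, 38.9, 42.2 and 42.1 CPM at P28 (log2 fold change 0.48, limma adjusted p = 0.04, 0.049 to 0.13 with 1 library left out at a time). Pde6h, the inhibitory subunit of cone phosphodiesterase, was at 66.1, 63.9, 65.8 and 80.4 CPM at P15 and 91.9, 85.5, 90.1 and 96.0 CPM at P28 (log2 fold change 0.40, limma adjusted p = 0.043, 0.022 to 0.14), and its exons overlap Arhgdib on the opposite strand. The opsins did not pass. Opn1sw, the short-wave pigment, was at 85.1 to 103 CPM at P15 and 119 to 134 CPM at P28 (log2 fold change 0.42, limma adjusted p = 0.092). Calu lies over it on the other strand. Opn1mw, the middle-wave pigment, was at 35.2 to 41.7 CPM at P15 and 33.3 to 43.7 CPM at P28 (log2 fold change -0.00, limma adjusted p = 1.0).

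Promoter windows of 4 of the photoreceptor genes that rose are shown because the factor CRX is known to bind the letters TAATCC near such genes. They lie at chr17:47400607-47400856, minus strand for Guca1a, chr3:108092816-108093065, plus strand for Gnat2, chr14:33953753-33954002, plus strand for Rbp3 and chrX:100605247-100605496, plus strand for Arr3 (RefSeq, GRCm38.p6, 250 bases up to an annotated start). Capitals mark TAATCC or its reverse complement GGATTA, which starts at position -57 from the start in Guca1a, -19 in Gnat2 and -69 in Rbp3. The windows of Arr3, Pde6h and Prph2 held none, so that 3 of 6 did, against 6.25% of all 32851 windows. A match of letters is not evidence of binding.
Guca1a: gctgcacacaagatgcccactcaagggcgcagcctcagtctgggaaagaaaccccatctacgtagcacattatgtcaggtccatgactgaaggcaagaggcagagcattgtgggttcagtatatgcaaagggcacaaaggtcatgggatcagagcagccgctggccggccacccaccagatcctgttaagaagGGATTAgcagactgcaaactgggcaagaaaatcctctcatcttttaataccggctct
Gnat2: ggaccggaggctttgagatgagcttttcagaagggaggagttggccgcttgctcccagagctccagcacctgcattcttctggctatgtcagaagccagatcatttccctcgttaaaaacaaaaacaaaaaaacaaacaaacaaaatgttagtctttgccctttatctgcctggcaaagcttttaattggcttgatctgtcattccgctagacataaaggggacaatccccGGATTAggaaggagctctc
Rbp3: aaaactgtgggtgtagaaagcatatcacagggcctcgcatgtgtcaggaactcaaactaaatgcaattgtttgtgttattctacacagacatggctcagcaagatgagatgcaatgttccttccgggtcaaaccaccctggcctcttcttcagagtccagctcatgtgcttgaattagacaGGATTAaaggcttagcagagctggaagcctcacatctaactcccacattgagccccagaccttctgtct
Arr3: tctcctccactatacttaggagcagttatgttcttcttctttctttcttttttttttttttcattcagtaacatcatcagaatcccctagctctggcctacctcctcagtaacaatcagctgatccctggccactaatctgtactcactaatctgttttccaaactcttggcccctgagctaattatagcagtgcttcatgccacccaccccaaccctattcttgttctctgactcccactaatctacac

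The visual cycle list, enzymes and carriers that regenerate the pigment, had a negative median, -0.35, with 10 of 12 below 0. Its 1 member past the threshold rose. Rbp3, the retinoid carrier that photoreceptors secrete, was at 2555, 2718, 2750.3 and 2994 CPM at P15 and 3528, 3623, 3547 and 3301 CPM at P28 (log2 fold change 0.35, limma adjusted p = 0.033, 0.03 to 0.11 with 1 library left out at a time). Lrat at -0.54, Rdh5 at -0.33 and Rlbp1 at -0.23, which act in RPE or Müller glia, did not pass. Photoreceptor transcription factors did not change detectably, with 0 of 12 past the threshold. Crx was at 1000.2 to 1061 CPM at P15 and 925 to 1029 CPM at P28 (log2 fold change -0.08, limma adjusted p = 0.62) and Nrl at 0.05.

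**Figure D4:**
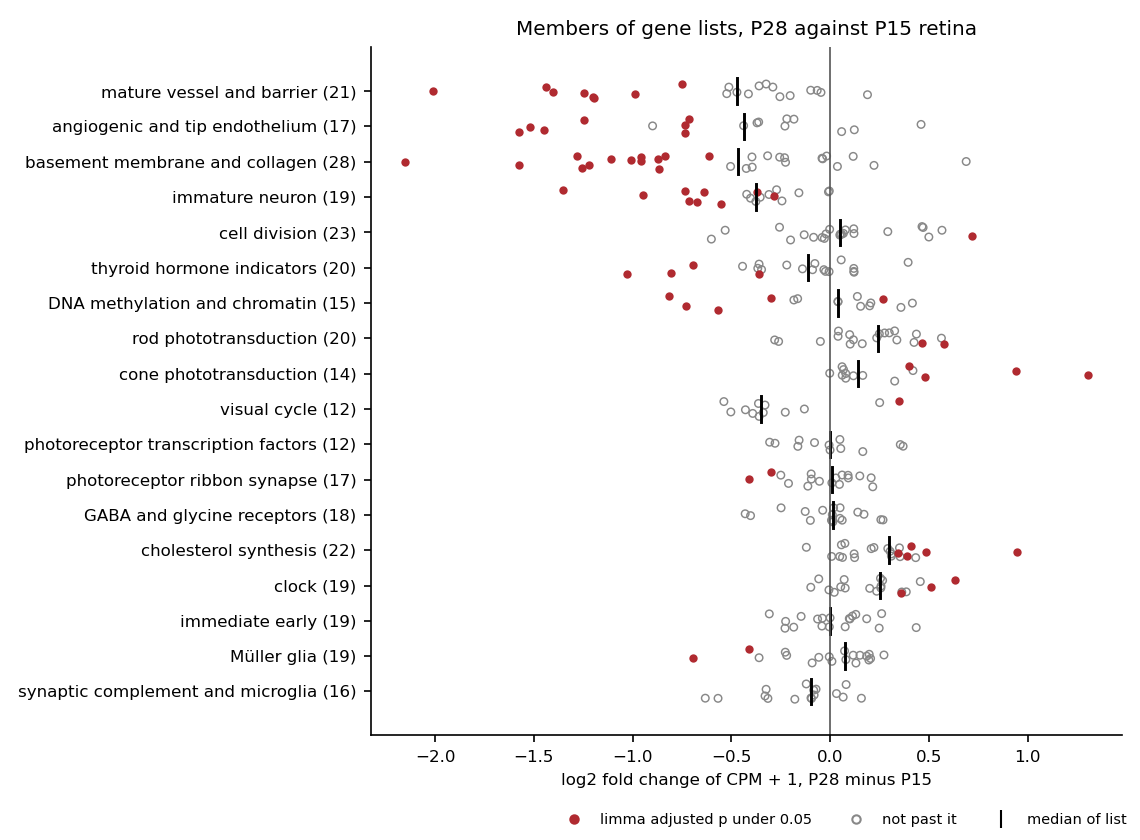
Log2 fold change (P28 minus P15) of every tested member of 18 gene lists, with the number tested in brackets, members past a limma adjusted p of 0.05 filled red and the median as a black bar. Red points of the 3 vessel and matrix lists and of immature neurons all lie below 0, and those of the rod, cone, cholesterol and clock lists all lie above 0.

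Synaptic and signalling lists of retinal neurons showed few changes past the threshold. Of the ON bipolar complex around the receptor mGluR6, 1 of 12 fell, Grm6 itself, at 196, 187, 186 and 183 CPM at P15 and 125, 123, 136 and 113 CPM at P28 (log2 fold change -0.60, limma adjusted p = 0.047). The P28 libraries were all lower, but the adjusted p was 0.064 to 0.15 with 1 library left out at a time. The settings that kept every P15 and P28 library, edgeR among them, gave 0.00011 to 0.65, the highest with a pseudocount of 0.1. Of 17 photoreceptor ribbon synapse genes 2 fell, Rims1, an active zone scaffold, at 194 to 224 CPM at P15 and 144 to 164 CPM at P28 (log2 fold change -0.41, limma adjusted p = 0.0049) and Dag1, the dystroglycan gene, at 55.3 to 67.3 CPM at P15 and 42.6 to 53.6 CPM at P28 (log2 fold change -0.30, limma adjusted p = 0.035, 0.026 to 0.18 with 1 library left out at a time). Of the ribbon synapse genes 1 fell without P15 replicate 4, as with edgeR, since Dag1 then missed the threshold. Without that library 0 of the 12 genes of the mGluR6 complex passed. No member passed among 7 NMDA receptor subunits, 18 GABA and glycine receptor genes or 9 dopamine and melatonin genes by limma. Of the most abundant in these lists, Grin2b was at -0.28 (limma adjusted p = 0.31, in a range of 0.01 to 0.51 over 15 other settings). Drd4, the dopamine receptor of photoreceptors, was at -0.62 (limma adjusted p = 0.075, in a range of 0.00057 to 0.58 over those settings). In both genes the ages did not overlap. The limma fit took its spread from all 7 ages and not from P15 and P28 alone.

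Sgk1 had the second largest rise among genes with a Gene ID. It encodes a kinase named for its induction by serum and glucocorticoids. It was at 19.3, 18.2, 15.5 and 14.6 CPM at P15 and 62.4, 67.5, 65.5 and 92.1 CPM at P28, a 4.26-fold difference of means with a log2 fold change of 2.02 (SE 0.19, limma adjusted p = 1.8e-08). The highest P15 library was far under the lowest P28 library, and P28 replicate 4 was the highest of all. Sgk1 reached 129 ± 11.2 CPM at P60 (SD, n = 6), a further 0.85 (limma adjusted p = 0.0042). It was the only one of 18 tested glucocorticoid-responsive genes past the threshold. Fkbp5 was at -0.07, Tsc22d3 at -0.13 and Per1 at 0.07, and the median was 0.07. Of 6 RefSeq windows of Sgk1, the one shown, at chr10:21993640-21993889, plus strand (GRCm38.p6), held the glucocorticoid receptor palindrome, in capitals, at position -189 from the start. It was searched as AGAACA, any 3 bases and TGTTCT, which reads the same on both strands. Of 32851 windows, 3 held it (0.00913%). A match of letters is not evidence of binding, and the part of glucocorticoids in the rise of Sgk1 was not tested.
Sgk1: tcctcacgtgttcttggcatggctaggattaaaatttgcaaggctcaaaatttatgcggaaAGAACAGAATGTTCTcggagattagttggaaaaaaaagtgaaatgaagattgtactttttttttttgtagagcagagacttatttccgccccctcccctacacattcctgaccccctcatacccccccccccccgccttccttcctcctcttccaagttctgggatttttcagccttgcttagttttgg

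Ndufaf2, an assembly factor of respiratory complex I, was at 10.8, 7.64, 8.76 and 11.5 CPM at P15 and 43.6, 48.3, 47.2 and 57.9 CPM at P28, the largest rise with a Gene ID, with a log2 fold change of 2.24 (SE 0.15, limma adjusted p = 1.6e-11) and means 5.08-fold apart. Its exons overlap B230220B15Rik on the opposite strand. Nuclear respiratory chain subunits had 0 of 24 past the threshold (1 rose without P15 replicate 4) and a median of 0.03, and the 7 mitochondrially encoded genes had 0, with all 7 above 0 and a median of 0.28. Hk2, the hexokinase of glycolysis in photoreceptors, was at 109, 112, 108 and 128 CPM at P15 and 237, 272, 236 and 292 CPM at P28 (log2 fold change 1.17, limma adjusted p = 3.8e-07), after a rise of 2.94 from P6 to P15, and was chosen after its values were seen. Hdc, which makes histamine, was at 2.54, 2.37, 1.95 and 2.61 CPM at P15 and 5.73, 8.004, 7.17 and 13.6 CPM at P28 (log2 fold change 1.46, limma adjusted p = 1e-05), and went on to 23.4 ± 3.05 CPM at P60 (SD, n = 6). Etnppl, a phosphoethanolamine lyase of astrocytes, was at 3.61, 3.69, 2.68 and 2.89 CPM at P15 and 9.59, 9.97, 9.74 and 10.7 CPM at P28 (log2 fold change 1.39, limma adjusted p = 3e-06). Every P28 library exceeded every P15 library in Ndufaf2, Hdc and Etnppl, as the rule for naming them required, and in Hk2.

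**Figure D5:**
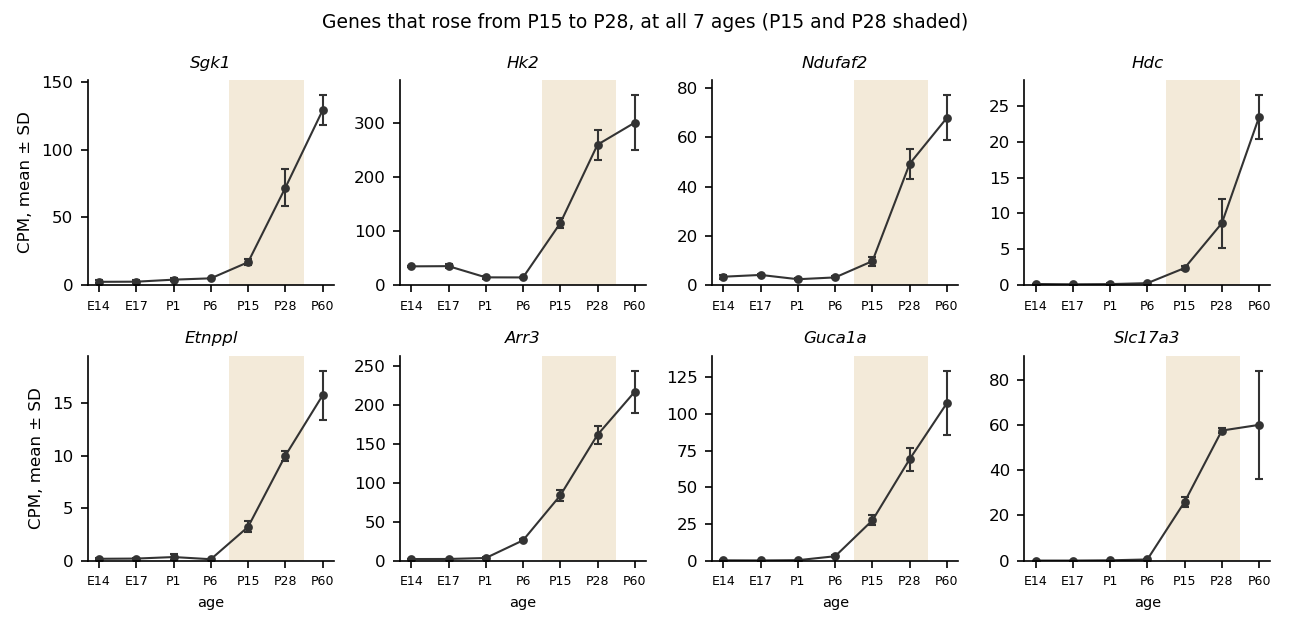
Mean CPM with SD at each of the 7 ages (3 libraries at E14, E17 and P6, 4 at P1, P15 and P28, 6 at P60) for 8 genes that rose from P15 to P28 (shaded). All 8 means are higher at P28 than at P15, and Sgk1 and Hdc continue steeply to P60 while Slc17a3 does not.

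Of 22 tested cholesterol synthesis genes 5 rose and 0 fell, with 21 of 22 above 0 and a median of 0.30, and without P15 replicate 4, 4 rose. Idi1, Msmo1 and Cyp51, enzymes of the pathway, changed by 0.48 (limma adjusted p = 0.011), 0.41 (limma adjusted p = 0.0094) and 0.35 (limma adjusted p = 0.019). With 1 library left out at a time, Cyp51 had an adjusted p of 0.018 to 0.074 and Idi1 of 0.009 to 0.068. Srebf2, the factor that drives the pathway, was at 0.35 and did not pass. Fatty acid synthesis genes had 0 of 18 past the threshold and a median of 0.07.

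Of 19 clock genes 3 rose and 0 fell, with a median of 0.25 and 16 above 0, and without P15 replicate 4, 1 rose. Bhlhe40 and Bhlhe41, repressors of clock output, were at 18.4 to 24.5 CPM at P15 and 30.2 to 38.8 CPM at P28 (log2 fold change 0.63, limma adjusted p = 0.013) and 80.4 to 84.5 CPM at P15 and 118 to 120.1 CPM at P28 (log2 fold change 0.51, limma adjusted p = 0.035). Per3, a period gene, was at 201 to 209 CPM at P15 and 243 to 274 CPM at P28 (log2 fold change 0.36, limma adjusted p = 0.041). With 1 library left out at a time the adjusted p was 0.013 to 0.072 for Bhlhe40, 0.07 to 0.092 for Bhlhe41 and 0.052 to 0.12 for Per3. The settings that kept every P15 and P28 library, edgeR among them, gave 0.0041 to 0.035, 0.00013 to 0.088 and 0.0019 to 0.055 in the same order. The hour of collection is given only as a window of the afternoon, so its part in these values was not tested. Arntl and Clock were at -0.01 and 0.05. Immediate early genes, which neurons switch on with activity, had 0 of 19 past the threshold, with Fos at 0.10 and Jun at -0.23.

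A run of neighbouring genes on chromosome 13 rose together, a group picked after its values were seen. Trim38, Slc17a2, Slc17a3, Slc17a1 and Slc17a4 follow one another between 23778500 and 23915009 (GRCm38), where the 4 Slc17 genes encode phosphate and organic anion carriers. Slc17a3 was at 29.2, 23.6, 25.3 and 25.7 CPM at P15 and 57.7, 58.3, 56.2 and 57.8 CPM at P28 (log2 fold change 1.12, limma adjusted p = 0.0024) and Slc17a4 at 34.7, 35.8, 36.1 and 41.4 CPM at P15 and 63.4, 71.2, 73.7 and 64.9 CPM at P28 (log2 fold change 0.87, limma adjusted p = 0.0073). Slc17a2 changed by 1.12 (limma adjusted p = 0.0036), Slc17a1 by 0.93 (limma adjusted p = 0.0037) and Trim38 by 1.01 (limma adjusted p = 0.0055), or 0.89 without P15 replicate 4. All 5 were under 1 CPM at P6 and had already risen by P15, Slc17a4 by 4.42 and Slc17a3 by 4.17. The next gene outward, Scgn, did not change with them (0.14, adjusted p = 0.75). With a pseudocount of 0.1 the adjusted p was 0.17 for Slc17a4, 0.16 for Slc17a1, 0.19 for Trim38 and 0.058 for Slc17a2. On the X chromosome Kif4, a chromosome-associated kinesin, is separated from Arr3 by Pdzd11 alone. Kif4 was at 2.81, 2.50, 2.80 and 5.64 CPM at P15 and 9.19, 12.1, 12.7 and 11.2 CPM at P28 (log2 fold change 1.51, limma adjusted p = 4.7e-07), with P15 replicate 4 well above the other 3, and Pdzd11 changed by 0.46 (adjusted p = 0.033). Exons of Kif4 and Pdzd11 overlap on opposite strands in the GENCODE gene models, but not by their RefSeq positions.

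Other rises were of mixed kinds. Tcf20, a chromatin-associated regulator, was at 518, 542, 550.4 and 579 CPM at P15 and 1131, 1140.5, 1153 and 1564 CPM at P28 (log2 fold change 1.17, limma adjusted p = 1.1e-10), with a second entry of the same symbol at 1.19. Hist1h2be, a histone gene, was at 15.8, 11.5, 11.8 and 12.4 CPM at P15 and 26.0, 33.8, 37.6 and 36.1 CPM at P28 (log2 fold change 1.31, limma adjusted p = 5.9e-06), while 0 of 26 replication-dependent histone genes in the list passed. Annotated exons of Hist1h2be overlap those of Hist1h1e, a member of that list, on the same strand. Syne3, which ties the nucleus to intermediate filaments, was at 34.9 to 40.3 CPM at P15 and 69.1 to 98.2 CPM at P28 (log2 fold change 1.10, limma adjusted p = 0.0004). Trim43a changed by 1.32 (limma adjusted p = 0.00046), Gm11754 by 1.72 (limma adjusted p = 3.6e-08), Gm10097 by 1.55 (limma adjusted p = 2.6e-05), Gm10829 by 1.44 (limma adjusted p = 3.7e-05) and A930041C12Rik by 1.42 (limma adjusted p = 0.00013). Of the 18 changed features without a Gene ID 13 rose and 5 fell. The largest was AK044703, which went from 8.21 ± 2.03 CPM at P15 to 52.2 ± 6.77 CPM at P28 (SD, n = 4 each, log2 fold change 2.55, limma adjusted p = 1.1e-10).

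Glial and immune lists were largely still. Of 19 Müller glia genes 2 fell, Crym as above and Vim, an intermediate filament, at 105 to 117 CPM at P15 and 76.2 to 94.1 CPM at P28 (log2 fold change -0.41, limma adjusted p = 0.017, 0.013 to 0.086 with 1 library left out at a time), and the median was 0.07. Without P15 replicate 4, 1 Müller glia gene fell, since Vim then missed the threshold. Glul was at 0.20 and Aqp4 at 0.01. No gene passed among 17 astrocyte and reactive glia genes, where Gfap was at 0.55 and 1 gene rose without P15 replicate 4, among 16 microglia and complement genes, where C1qa was at 0.08 and P2ry12 at -0.33, among 11 class I antigen presentation genes, or among 14 interferon-stimulated genes, where Ifit1 was at 0.81. No antioxidant gene of 20 and no myelin gene of 7 passed. Of 33 ribosomal protein genes 1 rose, Rplp1, at 5.62 to 11.0 CPM at P15 and 12.3 to 17.9 CPM at P28 (log2 fold change 0.74, limma adjusted p = 0.0025), with a median of 0.11, and without P15 replicate 4, 2 rose. Of 11 tested ciliary body and iris genes 1 fell, Zic2 (log2 fold change -0.56, limma adjusted p = 0.047, 0.021 to 0.24 with 1 library left out at a time and 0.095 with edgeR). Without P15 replicate 4, 0 fell. The 15 genes of that list summed to 321 to 351 CPM at P15 and 287 to 342 CPM at P28. Of 6 muscle genes 2 rose, Pvalb (log2 fold change 0.66, limma adjusted p = 0.035) and Actn3 (log2 fold change 0.61, limma adjusted p = 0.017), each under 3 CPM in every library. With 1 library left out at a time the adjusted p was 0.025 to 0.15 for Pvalb and 0.022 to 0.078 for Actn3, 1 of the muscle genes rose without P15 replicate 4, and edgeR called 0. Some genes named above overlap another annotated gene on the opposite strand, and 26 of the 97 changed features with an annotated position share exon bases with another gene. Reads of pairs on opposite strands cannot be told apart unless strand was used in counting. Some pairs lie on the same strand, such as Col3a1 with Gm47302, where strand would not separate them.

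For the lists with no member past a limma adjusted p of 0.05, counts at an unadjusted p under 0.05 and calls by edgeR were as follows. Fatty acid genes had 5 higher and 3 lower at the unadjusted threshold, astrocyte genes 5 and 1, interferon-stimulated genes 4 and 0, histones 4 and 2, photoreceptor transcription factors 2 and 3, nuclear respiratory chain genes 3 and 0, and mitochondrially encoded genes 3 and 0. Microglia genes, GABA and glycine receptors and NMDA receptor subunits each had 0 higher and 2 lower. Antioxidant genes had 1 and 1, class I antigen presentation genes and immediate early genes 1 and 0, myelin, dopamine and lens genes 0 and 1, and blood and surface epithelium genes 0 and 0. With edgeR on the reads recovered from CPM 1 photoreceptor transcription factor (Esrrb) rose, 1 dopamine gene (Drd4) fell and 1 surface epithelium gene (Krt12) rose, and the other lists in this paragraph had 0.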

How the data were processed

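Whole retinas were measured by total RNA sequencing. Per the labels and the paper's Methods, the authors aligned single-end Illumina reads with STAR to GRCm38/mm10 and deposited CPM values per gene; the annotation and the strand setting of counting are not given in the sources used here. Each CPM value was a whole number of reads at 1 library-wide step (100% of values within 0.05 of a whole read), which gave back the counted reads and the total used for scaling. Values were used as log2(CPM + 1), with a filter of at least 1 CPM in at least 3 of the 27 libraries, in 1 limma fit over all 7 ages, with Benjamini-Hochberg adjustment over all 31760 features (R 4.3.3, limma 3.58.1). A change was called at an adjusted p under 0.05 and at least 1 log2 unit, and list members at the adjusted p alone. A fold change on this scale understates the change of low genes.

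Genes named are the 12 largest rises and 12 largest falls with a Gene ID whose ages did not overlap, up to 6 members of each list past the threshold, and the 2 most abundant members of lists with none. All other genes named were chosen after their values were seen. The comparison and the lists were chosen with earlier results of these data known. Where a symbol had several entries (926 symbols), the one with the highest mean was used. Alternatives were edgeR 4.0.16 on the recovered reads, a pseudocount of 0.1, median-of-ratios scaling, other filters, a fit of P15 and P28 alone, a replicate block and each library left out. The code was tested on simulated data. The labels do not say whether libraries of an age are separate litters, so p-values measure the spread between these libraries. Results for some genes are not reported here.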

Additional observations from a re-analysis of the deposited data

Results flagged for a closer look

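A library was flagged where its gap to the nearest of the 4 libraries of its age was a share of the whole range of that age above Dixon's critical value. This occurred in 16 of 230 gene and age combinations, and chance flags about 1 in 20. Of the 16, 9 were P15 replicate 4. In that library Kif4 was at 5.64 CPM (the nearest other at 2.81), Rgs9bp at 1170.3 (1049), Pde6h at 80.4 (66.1), Nxnl1 at 279 (209), Grin1 at 87.0 (73.7), Nefm at 483 (319.7) and Alas2 at 24.7 (20.7), each higher than the rest. It was lower than the rest in A930041C12Rik at 0.550 CPM (1.74) and Rian at 212 (231).

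P15 replicate 1 stood apart in Kif19a at 10.7 CPM (18.4). P28 replicate 4 stood apart in Tie1 at 0.629 CPM (0.140), Hist1h1d at 30.04 CPM (17.5), Hist1h1e at 50.5 CPM (20.9) and Actn3 at 1.63 CPM (1.26). Rn18s, the ribosomal RNA that library kits remove, was at 2202 CPM in P28 replicate 3 (350.1 in the nearest other), and Krt12 at 23.4 CPM in P28 replicate 1 (1.51).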

How the results depend on the processing

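The 122 changed features (52 higher, 70 lower) became 190 (84 higher, 106 lower) with edgeR on the reads recovered from CPM, 119 of them shared, and 176 (68 and 108) with a pseudocount of 0.1, 103 of them shared. With a mean of at least 10 CPM they were 42 (21 and 21), and with no minimum size of change 864 (361 and 503). Median-of-ratios scaling gave 54 higher and 68 lower, no filter 52 and 70, and a fit of P15 and P28 alone 51 and 71. With no minimum size of change, the fit of P15 and P28 alone passed 1331 features, against 864 in the main fit. Leaving out 1 library at a time gave 114 to 151 features, 53 to 64 higher and 61 to 87 lower. With a replicate block there were 122 (52 and 70). The replicate numbers do not pair the samples: deviations of same-numbered P15 and P28 libraries had correlations of 0.03, 0.04, 0.00 and 0.09. Of 145 genes followed, 102 were past the adjusted threshold, 38 of these missed it under at least 1 alternative, and 0 reversed. Depth limits genes near 1 CPM, such as Aplnr and Robo4. The cause of these differences was not tested.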
